A study of Mus musculus with 6 samples.

Results

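The genes described here are the 4 Id genes (Id1, Id2, Id3 and Id4) and the 3 genes of the E proteins, the proteins that Id proteins bind (Tcf3, Tcf4 and Tcf12). They were taken by gene symbol, as a family picked with earlier results of these data known, and are 7 of the 18193 genes with a probe set of their own on a mouse Affymetrix array. A probe set is a group of short DNA probes that together report a transcript, and these genes have 22 of the 45037 probe sets tested. The cells came from the testes of prepubertal mice and were divided by magnetic sorting on Thy1, a surface protein carried by spermatogonial stem cells, the cells that sustain sperm production. The study collected a Thy1-positive and a Thy1-negative fraction from 3 independent donor preparations each, and germ cell transplantation placed more stem cells in the Thy1-positive fraction. The labels name no strain, genotype or treatment, so the fractions differ by the sort alone as far as they say. Arrays of the Thy1-negative fraction are written N1, N2 and N3, and those of the Thy1-positive fraction P1, P2 and P3.

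Id proteins and E proteins belong to the helix-loop-helix family, whose members bind each other in pairs. An E protein pairs with itself or with a tissue-restricted basic helix-loop-helix (bHLH) protein, and the pair binds DNA at the E-box, a short motif with the letters CANNTG. Id proteins lack the basic region that touches DNA, so an E protein held by an Id protein cannot bind the E-box. Bone morphogenetic protein (BMP) signals acting through SMAD proteins are well-known activators of Id genes. In the testis Id4 is known from undifferentiated spermatogonia, including stem cells, and Id and E proteins are also known from Sertoli cells, the somatic cells that nurse the germ cells.

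The DNA in front of Id2, Id3 and Id4 is shown because these Id genes differ in the motif that the E proteins read. Each run holds the 250 bases before the RefSeq transcription start in the mouse build GRCm38.p6, 5′ to 3′ on the strand of the gene, with E-boxes in capitals. They lie at chr12:25096093-25096342 on the minus strand for Id2, chr4:136143572-136143821 on the plus strand for Id3 and chr13:48260866-48261115 on the plus strand for Id4, in each case directly upstream of the first exon.
Id2: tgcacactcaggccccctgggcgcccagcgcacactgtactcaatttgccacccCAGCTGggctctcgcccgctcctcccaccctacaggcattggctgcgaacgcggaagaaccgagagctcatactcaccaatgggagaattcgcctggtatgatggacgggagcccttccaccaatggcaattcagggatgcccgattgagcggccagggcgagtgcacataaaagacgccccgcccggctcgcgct
Id3: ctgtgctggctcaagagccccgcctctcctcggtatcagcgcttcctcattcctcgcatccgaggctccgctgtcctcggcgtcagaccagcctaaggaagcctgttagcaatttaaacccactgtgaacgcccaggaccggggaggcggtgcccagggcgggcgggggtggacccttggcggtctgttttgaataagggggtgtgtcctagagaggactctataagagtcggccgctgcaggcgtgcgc
Id4: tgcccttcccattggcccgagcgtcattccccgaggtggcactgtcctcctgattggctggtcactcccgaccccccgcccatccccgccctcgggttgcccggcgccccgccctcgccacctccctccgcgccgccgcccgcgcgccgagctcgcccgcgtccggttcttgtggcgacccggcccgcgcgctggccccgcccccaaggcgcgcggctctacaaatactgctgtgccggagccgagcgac
The Id2 window held 1 E-box, with the letters CAGCTG, 196 bases before the start. The windows of Id3 and Id4 held 0. Among all 32851 windows of this length in the table, searched on both strands, 66.2% held a CANNTG and 13% a CAGCTG, which is also counted as a CANNTG. The table held windows for 5 of the 7 genes, Id1 and Tcf4 not being among them, and the Tcf3 window held 1 E-box 54 bases before its start. Tcf12 had 3 windows, for different starts: 1 held a CAGCTG 240 bases before its start, 1 another E-box 149 bases before its start, and the third held 0. These are matches of letters, and no binding was measured.

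The fractions differed on the sorted marker and on markers of several cell types. Thy1 itself was at 2.48 ± 0.23 (SD, n = 3) on the log2 scale in the Thy1-negative and 6.20 ± 0.27 (SD, n = 3) in the Thy1-positive fraction (limma, adjusted p = 0.000984). Correlations over all probe sets were 0.987 to 0.997 within fractions and 0.937 to 0.968 between them, and the median intensity of an array was 15.7 to 17.5. Of 17 measured markers of undifferentiated spermatogonia, led in intensity by Sall4, Etv5 and Zbtb16, 15 were called higher in the Thy1-positive fraction and 0 lower, and their intensities, each plus 1, summed to 3089 to 6221 on the Thy1-negative and 18698.5 to 19798 on the Thy1-positive arrays. All later marker sums were taken in the same way. Of 16 Sertoli cell markers, led by Clu, Cst12 and Dmrt1, 14 were called lower and 1 higher (Dmrt1, which germ cells also express), with sums of 108134 to 136843 against 19389.9 to 38871. All 13 macrophage markers, led by Lyz2, C1qb and Mrc1, were called higher, with sums of 173 to 209.9 against 16419 to 23239. Of 7 peritubular myoid markers 5 were called lower and 0 higher, of 5 Leydig cell markers 2 and 0, and of 8 interstitial mesenchyme markers 1 and 0. Of 8 endothelial markers 1 was called lower and 2 higher, of 9 T lymphocyte markers 0 and 3, and of 11 germ cell markers 0 and 4. These marker calls used the brightest probe set of each gene. On that footing 33.0% of all 18193 genes were called, 18.5% higher and 14.4% lower, so counts near these shares do not set a cell type apart. The 11 germ cell markers had a median difference of 1.94 on the log2 scale. All 11 were higher in the Thy1-positive fraction without overlap, where 24.9% of all probe sets were. N2 had the highest germ cell markers of the Thy1-negative arrays, with a sum of 35582 against 12684 and 17294.5, and P2 the highest Sertoli markers of the Thy1-positive arrays. In cell mixtures such as these, fewer cells of a type and less RNA per cell cannot be told apart.

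Id4 rose in the Thy1-positive fraction. All 3 of its probe sets were higher in the Thy1-positive fraction, by 4.31-fold to 12.3-fold. Id1, Id2 and Id3 had lower means there on all 5 of their probe sets, and 1 of the 5 passed the test. Among the E proteins, Tcf3 was higher on 2 of 3 probe sets, Tcf4 lower on 2 of 6 and Tcf12 lower on 3 of 5. In all, 11 of the 22 probe sets were called (50.0%), 5 higher and 6 lower, where 23.4% of all probe sets were called, 11.8% higher and 11.5% lower. After quantile normalization the split was 5 higher and 3 lower. Leaving out N2 gave 3 higher and 9 lower, leaving out P2 gave 3 and 2, P1 2 and 2, and N1, N3 or P3 2 and 1. The shares of all probe sets called under these alternatives are not given here. The values of the fractions did not overlap on 14 of the 22 (63.6%), 9 of them lower and 5 higher, against 43.6% of all probe sets, 24.9% higher and 18.7% lower. In both comparisons the 22 were not matched in brightness to all probe sets. With the brightest probe set of each gene, 33.0% of all genes were called. A call here is a Benjamini-Hochberg adjusted p below 0.05 in a limma fit over all probe sets, on log2 of the deposited intensity plus 1, and folds are on that scale.

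**Figure D1:**
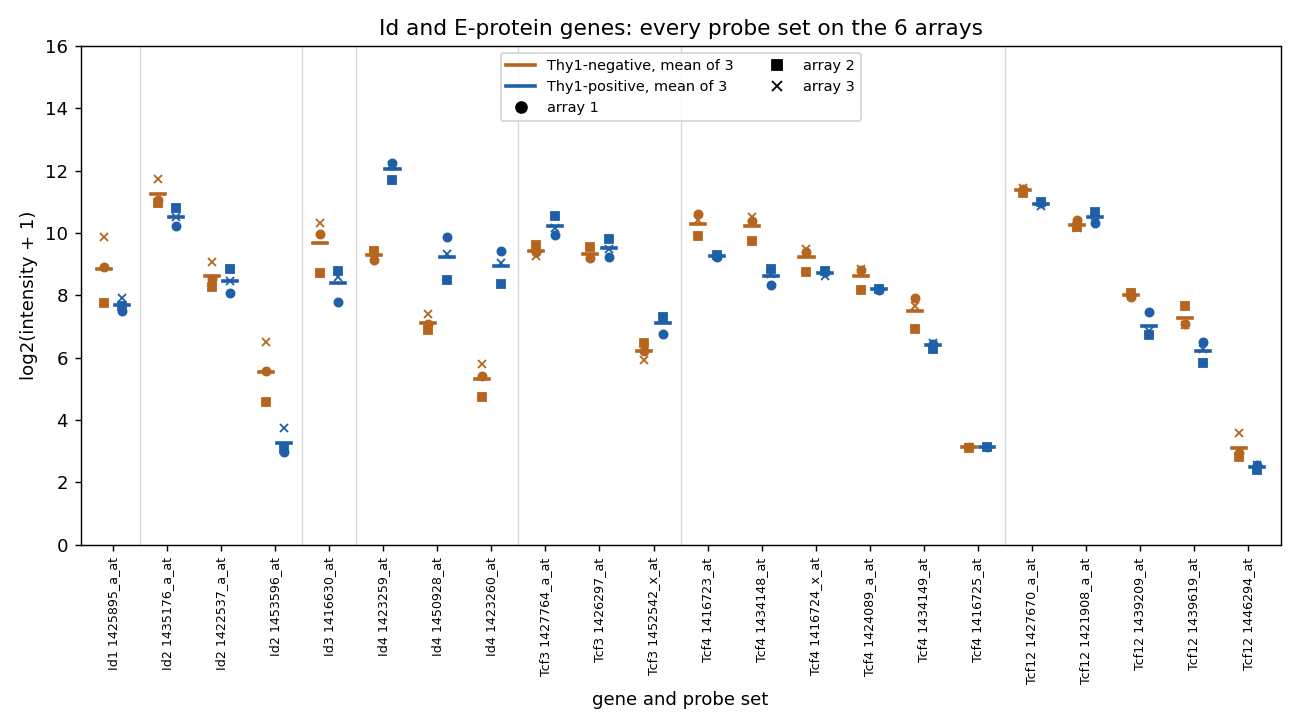
Level of all 22 probe sets of the 7 genes on each array, as log2(intensity + 1), with Thy1-negative arrays in orange and Thy1-positive arrays in blue, a symbol for each array number and a line for the mean of each fraction (n = 3). The first Id4 probe set lies at 9.13 to 9.43 on the Thy1-negative and 11.71 to 12.25 on the Thy1-positive arrays, while Id1 and Id3 spread widely over the Thy1-negative arrays and overlap between fractions.

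Id4, the Id protein of undifferentiated spermatogonia, had its brightest probe set (1423259_at) at intensities of 559.985, 691 and 656 on N1, N2 and N3 and 4859.9, 3351 and 4656 on P1, P2 and P3. Every Thy1-positive array was therefore far above every Thy1-negative array, and the spread within either fraction was small against the gap. The means were 9.31 ± 0.16 and 12.05 ± 0.29 (SD, n = 3) on the log2 scale, a difference of 2.74 with a standard error of 0.18, or 6.68-fold (limma, adjusted p = 0.00276). The probe set 1423260_at read 41.1, 25.5 and 55.1 against 683, 326 and 524, and the difference was 3.63 with a standard error of 0.41 (limma, adjusted p = 0.0085). The probe set 1450928_at read 134, 118 and 166 against 938, 358 and 635. The fractions did not overlap on either, and P2 was the lowest Thy1-positive array on all 3 probe sets. For 1450928_at the difference was 2.11 with a standard error of 0.40 (limma, adjusted p = 0.0256), and this call was lost in 5 of the 6 fits that left out 1 array and held without P2, at 2.48. The 3 probe sets are annotated to the same source sequence and are not independent of each other.

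Id1, a target of BMP signals in many tissues, read 480 on N1, 216 on N2 and 931 on N3, and its readings on P1, P2 and P3 were 179, 202 and 242. N3 and N1 were high and N2 lay among the Thy1-positive arrays, so the fractions overlapped. The means were 8.85 ± 1.05 and 7.69 ± 0.22 (SD, n = 3), and the difference of -1.15 did not pass the test (limma, adjusted p = 0.249), with a 95% interval of -2.68 to 0.37. Leaving out N2 gave -1.69, which passed, and leaving out N3 gave -0.64, which did not.

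Id3 gave much the same picture. Its probe set read 1002, 417 and 1269 on the Thy1-negative arrays and 218, 441 and 381 on the Thy1-positive arrays. N2 again fell within the Thy1-positive values, and the other 2 Thy1-negative arrays stood above them. The difference was -1.28 with a standard error of 0.54 and a 95% interval of -2.70 to 0.13 (limma, adjusted p = 0.178). Without N2 it was -1.76 and passed.

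Id2 had 3 probe sets that did not give the same answer. The brightest, 1435176_a_at, read 2143, 1999.98 and 3434 against 1196, 1779 and 1449, with every Thy1-positive array below every Thy1-negative array. Its difference of -0.75 had a 95% interval of -1.48 to -0.02 and did not pass the test (limma, adjusted p = 0.132). It did pass with dim probe sets left out (-0.75) and with array weights (-1.20). The probe set 1422537_a_at read 365, 306 and 541 against 266, 453 and 352, an overlap with a difference of -0.17 and a 95% interval of -0.98 to 0.64 (limma, adjusted p = 0.795), and this direction turned without N3 (0.06) or without P1 (0.03). With array weights this probe set was called lower, at -0.60. The third, 1453596_at, was dim, at 46.2, 22.9 and 90.1 against 6.84, 7.44 and 12.3, with no overlap and every Thy1-positive value below its array's median. It was called lower by 2.29 on the log2 scale (limma, adjusted p = 0.0497), a value at the edge of the threshold. The call held without N2, at -2.77, and was lost without any other array, at -2.53 to -1.81.

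On all 5 probe sets of Id1, Id2 and Id3, N2 was the lowest and N3 the highest of the Thy1-negative arrays, and N2 was also the Thy1-negative array with the highest germ cell markers. Its mean over the germ cell list was 10.77 on the log2 scale, against 9.01 on N1 and 9.54 on N3 and 11.56 to 11.64 on the Thy1-positive arrays. Its Sertoli marker sum was the lowest of the 3, at 108134. The part of the cell mixture in the Id values was not tested.

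Whether Id4 and the other Id genes moved apart was compared within each array, where a scaling of the whole array drops out. The log2 value of Id4 minus that of Id1 was 0.22, 1.67 and -0.51 on N1, N2 and N3 and 4.76, 4.05 and 4.26 on P1, P2 and P3. The difference thus widened on every Thy1-positive array, by a mean of 3.89. The corresponding change was 3.49 for Id4 minus Id2 and 4.02 for Id4 minus Id3, again with no overlap. Each exact 2-sided permutation test over the arrays gave p = 0.1, the smallest value that 3 arrays against 3 can reach, and 0.1 after adjustment over the 5 pairs compared. Because probe sets differ in brightness, only the change in these differences can be read, and their sign says nothing of which gene is more abundant.

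**Figure D2:**
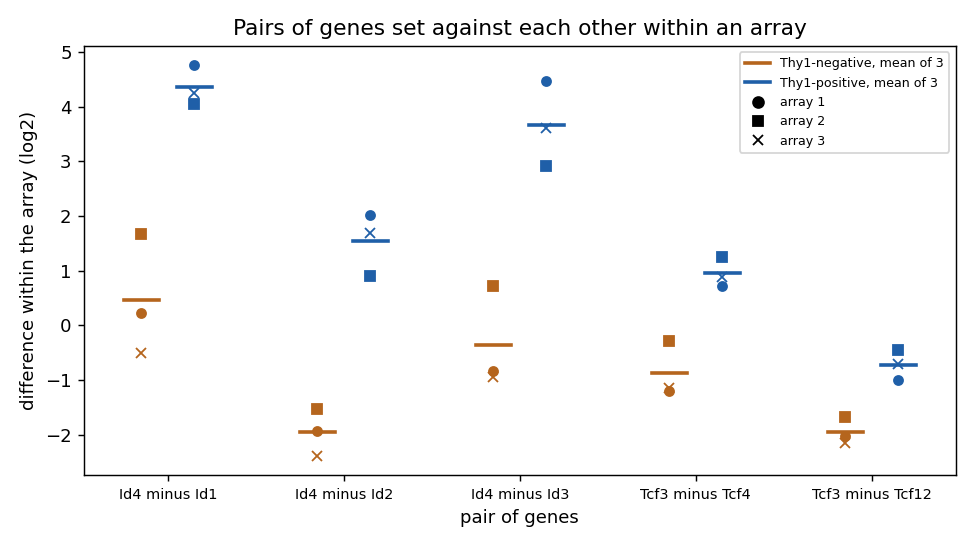
Difference in log2 level between 2 genes on the same array, for 5 pairs of genes, with the 3 Thy1-negative (orange) and 3 Thy1-positive (blue) arrays as points and a line for the mean of each. In every pair the Thy1-positive arrays lie above the Thy1-negative arrays, by a mean of 3.49 to 4.02 for Id4 minus another Id gene and 1.23 and 1.83 for Tcf3 minus Tcf12 and Tcf4.

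Tcf3, which encodes the E proteins E12 and E47, was moderately higher in the Thy1-positive fraction on 2 of its 3 probe sets. Its brightest probe set, 1427764_a_at, read 677, 784 and 617 on the Thy1-negative and 983, 1486 and 1142 on the Thy1-positive arrays, without overlap. The difference was 0.78 with a standard error of 0.19, or 1.72-fold (limma, adjusted p = 0.0461), and it did not pass when any 1 array was left out, at 0.62 to 0.92. The probe set 1452542_x_at read 73.8, 88.5 and 60.3 against 107, 157 and 149.6, or 1.84-fold (limma, adjusted p = 0.0498), and of the fits without 1 array it passed only without N2, at 1.01. The probe set 1426297_at read 579.9, 743 and 595 against 597, 900.1 and 717, overlapping, with a difference of 0.19 and a 95% interval of -0.31 to 0.70 (limma, adjusted p = 0.56). P2 was the highest Thy1-positive array on all 3 probe sets. Of the 3, 2 cite the same source sequence.

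Tcf4, the gene of the E protein E2-2, was lower in the Thy1-positive fraction on 2 of its 6 probe sets. The brightest, 1416723_at, read 1545, 956 and 1360.1 on N1, N2 and N3 and 593, 623 and 614 on P1, P2 and P3. The Thy1-positive arrays were close together and below all Thy1-negative arrays, of which N2 was the lowest. The difference fell by 1.05 on the log2 scale, with a standard error of 0.19, or 2.07-fold (limma, adjusted p = 0.0242), and of the fits without 1 array it passed only without N2, at -1.25. The probe set 1434148_at read 1349, 863 and 1448 against 323, 461 and 409.9, a change of -1.59 with a standard error of 0.26 or 3.02-fold (limma, adjusted p = 0.0179). It was lost without N1, N3, P1 or P3, at -1.45 to -1.62. The other probe sets of Tcf4 did not pass.

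Of these, 1434149_at read 242, 119.9 and 202 against 85.8, 75.8 and 88.2 and did not overlap, with a difference of -1.11 (limma, adjusted p = 0.0567). It was called without N2 (-1.40), and also with arrays centred on their medians (-0.99) or on housekeeping genes (-1.07), with dim probe sets left out or raised to a floor, with a trended, robust variance and with array weights. The probe set 1416724_x_at read 672, 433 and 714 against 433, 443 and 389, and 1424089_a_at 451, 287 and 457 against 289, 294 and 294. Both overlapped between fractions through N2, with differences of -0.49 and -0.41, and of the fits without 1 array each passed only without N2, at -0.72 and -0.63. With array weights both also passed, at -0.82 and -0.63. The probe set 1416725_at stayed at 7.63 to 7.87 on all 6 arrays and was below the median of each. N2 was the lowest Thy1-negative array on all 6 probe sets, and 2 of them cite the same source sequence.

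Tcf12, the gene of the E protein HEB, had the smallest fold among the 7 called E-protein probe sets, and the one E-protein call that held without each of the 6 arrays. Its brightest probe set, 1427670_a_at, read 2737, 2505 and 2759.95 on the Thy1-negative and 1974, 2026 and 1856 on the Thy1-positive arrays. The values were tight within each fraction and did not overlap. The difference was -0.45 with a standard error of 0.05, or 1.37-fold lower (limma, adjusted p = 0.00972), and without 1 array it was -0.49 to -0.41. The probe set 1439209_at read 244, 271 and 251 against 175, 104 and 115, lower by 1.98-fold (limma, adjusted p = 0.0371). The probe set 1439619_at read 134, 200.5 and 131 against 89.4, 56.4 and 76.4, lower by 2.08-fold (limma, adjusted p = 0.0481).

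These other calls of Tcf12 were less firm. Of the fits without 1 array, the first passed only without P1, at -1.21, and the second in none, at -0.86 to -1.20. The probe set 1421908_a_at pointed the other way, at 1353, 1178 and 1134 against 1286, 1618 and 1489, with overlap through N1 and P1, a difference of 0.26 and a 95% interval of -0.05 to 0.56 (limma, adjusted p = 0.202). It was called higher, at 0.38, when arrays were centred on their medians, a scaling that moved the median difference of all genes from 0.01 to 0.13. Array weights also gave this probe set a higher call. The dim probe set 1446294_at read 6.66, 5.98 and 10.9 against 4.83, 4.27 and 4.85 and did not pass (limma, adjusted p = 0.138). The Tcf12 probe sets therefore did not share a direction.

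Within arrays, Tcf3 minus Tcf4 went from -1.19, -0.29 and -1.14 on N1, N2 and N3 to 0.73, 1.25 and 0.89 on P1, P2 and P3, a change of 1.83. Tcf3 minus Tcf12 went from -2.01, -1.68 and -2.16 to -1.01, -0.45 and -0.70, a change of 1.23. Neither pair overlapped between fractions, and the exact 2-sided permutation p was again 0.1. Macrophage and Sertoli markers also differed between these arrays, with the sums given above. Germ cell markers summed to 12684 to 35582 on the Thy1-negative and 50069 to 52945 on the Thy1-positive arrays. Peritubular myoid markers summed to 16361.5 to 17996.5 and 2505.5 to 3464. The part of these cell types in the E-protein differences was not tested.

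**Figure D3:**
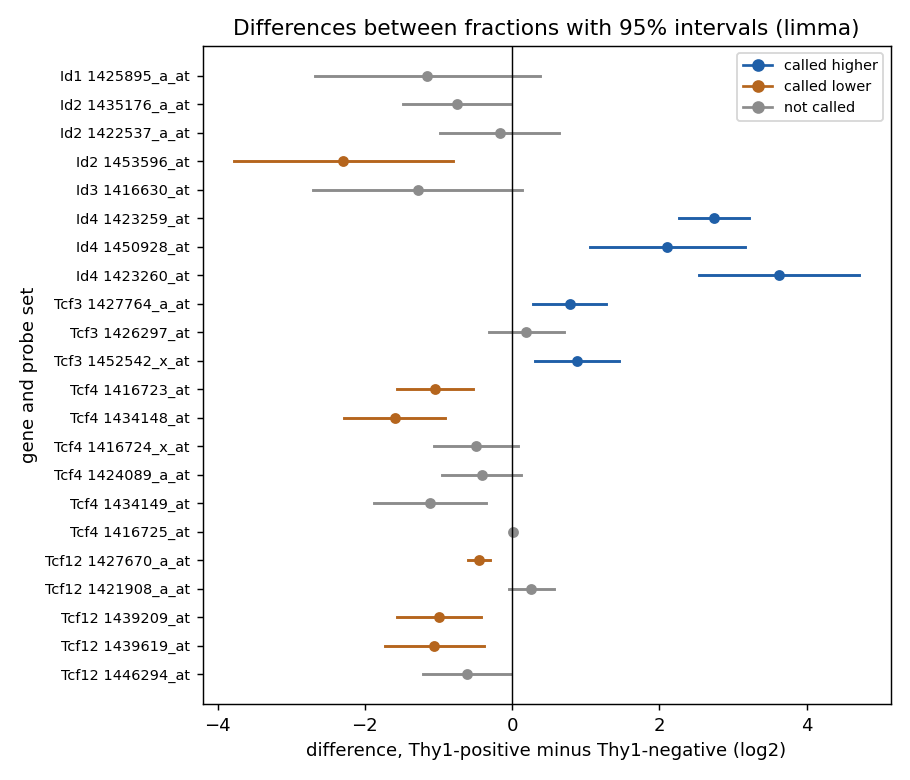
Thy1-positive minus Thy1-negative difference on the log2 scale with its 95% interval for all 22 probe sets of the 7 genes (n = 3 arrays per fraction), blue where called higher, orange where called lower and grey where not called. The 3 Id4 probe sets lie between 2.11 and 3.63, the other Id probe sets between -2.29 and -0.17, and the E-protein probe sets between -1.59 and 0.88.

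The wider pathway was read at gene level, with the brightest probe set of each gene and adjustment over all 18193 genes, of which 33.0% were called, 18.5% higher and 14.4% lower. Of 101 listed genes measured, 15 were called higher and 22 lower, together 36.6%. The split was 51 higher and 24 lower with arrays centred on their medians. That scaling moved the median difference of all genes from 0.01 to 0.13. The share of all genes called under it is not given here, so the 51 cannot be read as a result about these lists. Without N2 the split was 24 and 23, and without P2 11 and 16. Without N1, N3, P1 or P3 it was 7 to 10 higher and 8 to 10 lower. The shares of all genes called in these fits are not given here either. The median difference of all genes was 0.01. The 4 Id genes had a median of -0.95 and the 3 E-protein genes one of -0.45 on this footing. With the adjustment over all probe sets, as used for the 22, Sohlh1, Tcf21, Rb1 and Bhlhe40, named below, were not called.

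Among the tissue-restricted bHLH partners of E proteins, 5 of 35 measured genes were called higher and 3 lower, with a median of 0.01, and 13 of the 35 were below the 25th percentile of intensity on all 6 arrays. Lyl1, a bHLH factor of blood-forming cells, was below that percentile on all Thy1-negative arrays. It was higher by 3.93 on the log2 scale in the Thy1-positive fraction (limma, adjusted p = 0.00029). With the Thy1-negative values set to the 25th percentile of their arrays the fold was 13.02, and its size depends on the floor and the pseudocount chosen. Sohlh1 and Sohlh2, bHLH factors of spermatogonia, were higher by 2.03 and 1.82 on the log2 scale (limma, adjusted p = 0.0451 and 0.0343), and Sohlh1 is also on the list of undifferentiated spermatogonia. Tcf23 differed by -1.75, Scx, a bHLH factor of tendon, by -1.33 and Tcf21, a bHLH factor of mesenchyme that is also on the mesenchyme marker list, by -1.24 (limma, adjusted p = 0.00348, 0.021 and 0.0387). Of the fits without 1 array, Sohlh1 and Sohlh2 passed only without N2 (2.54 and 2.24), Tcf21 only without P2 (-1.54) and Scx only without N2 or N3 (-1.57 and -1.10), while Lyl1 and Tcf23 passed in all 6. Averaged over their 2 probe sets, Scx and Tcf21 differed by -0.67 and -0.62, and with a pseudocount of 16 Lyl1 differed by 2.26 and Scx by -0.65, all still called.

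The cofactors and corepressors that E-protein complexes carry moved in both directions, with 4 of 14 genes called higher and 6 lower and a median of -0.51. Lmo2, the bridging protein that joins E-protein pairs to Ldb1 in blood-forming cells, was at 3.83 ± 0.01 on the Thy1-negative and 6.49 ± 0.55 on the Thy1-positive arrays (SD, n = 3), a difference of 2.66 (limma, adjusted p = 0.00583). Ssbp3 and Ssbp2, which stabilise Ldb1 complexes, were higher by 1.28 and 1.18 (limma, adjusted p = 0.00736 and 0.00775), though the other 3 probe sets of Ssbp2 differed by 0.66, -0.30 and 0.01 and did not pass, and the mean of its probe sets by 0.39. Cbfa2t3, a corepressor that E proteins recruit, fell by 3.28 (limma, adjusted p = 0.0085). Its other 3 probe sets differed by -2.24, -1.65 and -0.70, the last not called, and their mean with the first by -1.97. Zeb2, a repressor that itself binds E-boxes, fell by 1.96, and Lmo4, a LIM-only relative of Lmo2, fell by 1.59 (limma, adjusted p = 0.0255 and 0.00672). Of the fits without 1 array, the Zeb2 call held only without N2 or N3 (-2.36 and -1.59), and it ended when the 5 probe sets of the gene were averaged (limma, adjusted p = 0.0524). Lyl1 and Lmo2 are known from blood cells, and the summed macrophage markers were 173 to 209.9 on the Thy1-negative and 16419 to 23239 on the Thy1-positive arrays; their part in these differences was not tested.

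The list of BMP and SMAD genes around Id transcription holds ligands, receptors and SMADs as well as inhibitors of the signal. Of its 27 measured genes, 3 were called higher and 7 lower, with a median of 0.00, and these counts give no direction of the signal. The ligand gene Bmp7 was higher by 1.23 and the receptor gene Bmpr1b by 0.97 (limma, adjusted p = 0.032 and 0.018). Bmpr1b was dim, at a mean of 4.37 on the Thy1-negative and 5.34 on the Thy1-positive arrays on the log2 scale. Fst, whose product follistatin traps activins and BMPs, was at 6.83 ± 0.15 against 9.46 ± 0.38 (SD, n = 3), a difference of 2.63 that its other probe set gave as 3.37 (limma, adjusted p = 0.0034 at gene level). Of the receptors, Bmpr2 fell by 1.71 and Acvrl1, an endothelial receptor, by 2.10 (limma, adjusted p = 0.00724 and 0.0354). Smad7, which blocks the receptors, fell by 1.69 (limma, adjusted p = 0.0326).

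These calls differed in how they held when 1 array was left out. Fst and Bmpr2 passed without each of the 6 arrays, Bmpr1b without all but N3 (0.83) and P3 (0.99), and Bmp7, Acvrl1 and Smad7 only without N2 (1.53, -2.60 and -2.08). The Smad7 call also ended when its 2 probe sets were averaged (limma, adjusted p = 0.0565). The other 2 probe sets of Bmpr2 differed by -0.44, which did not pass, and -0.63, and the mean of all 3 differed by -0.93. With a pseudocount of 16 the difference of Bmpr1b was 0.63.

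Cell-cycle genes were listed because Id proteins restrain the E-protein activation of CDK inhibitors, the brakes of the cell cycle. Of 14, 3 were called higher and 4 lower, with a median of 0.02. Cdkn1a (p21) was higher by 1.90 and Cdkn1c (p57) by 1.73 (limma, adjusted p = 0.0074 and 0.00242), and both passed without each array. The 3 Thy1-positive arrays held 1 identical value for Cdkn1a, 7.39 on the log2 scale. Rb1, the retinoblastoma gene, was higher by 0.58 (limma, adjusted p = 0.0389) and of the fits without 1 array passed only without N2 (0.72). Cdkn2c (p18) fell by 2.58 and Cdkn1b (p27) by 1.51 (limma, adjusted p = 0.0113 and 0.0228). Of the fits without 1 array, Cdkn2c lost the call without N3 or P3 (-2.48 and -2.62), and Cdkn1b held it only without N2 or P2 (-1.63 and -1.81). The other probe set of Cdkn1b differed by -0.01, and the mean of both by -0.76. Rbl1 (p107) fell by 0.92 (limma, adjusted p = 0.0236), but another of its probe sets differed by 0.56, of the fits without 1 array it passed only without N2 (-1.11), and the mean of its probe sets differed by -0.11 (limma, adjusted p = 0.239). The CDK inhibitors did not share a direction.

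Of 11 Hes, Hey and related repressors, bHLH proteins that recruit corepressors, 0 were called higher and 2 lower, and 3 had an unadjusted p below 0.05 in limma. The share of all genes below that unadjusted p is not given here. The median was 0.01. Heyl was at 8.40 ± 0.50 against 6.14 ± 0.06 (SD, n = 3) and fell by 2.26 (limma, adjusted p = 0.00679), passing without each array. Bhlhe40 fell by 1.83 (limma, adjusted p = 0.0496) and of the fits without 1 array passed only without N2 (-2.28). It was lost after quantile normalization (-1.74) and with a pseudocount of 16 (-1.67).

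**Figure D4:**
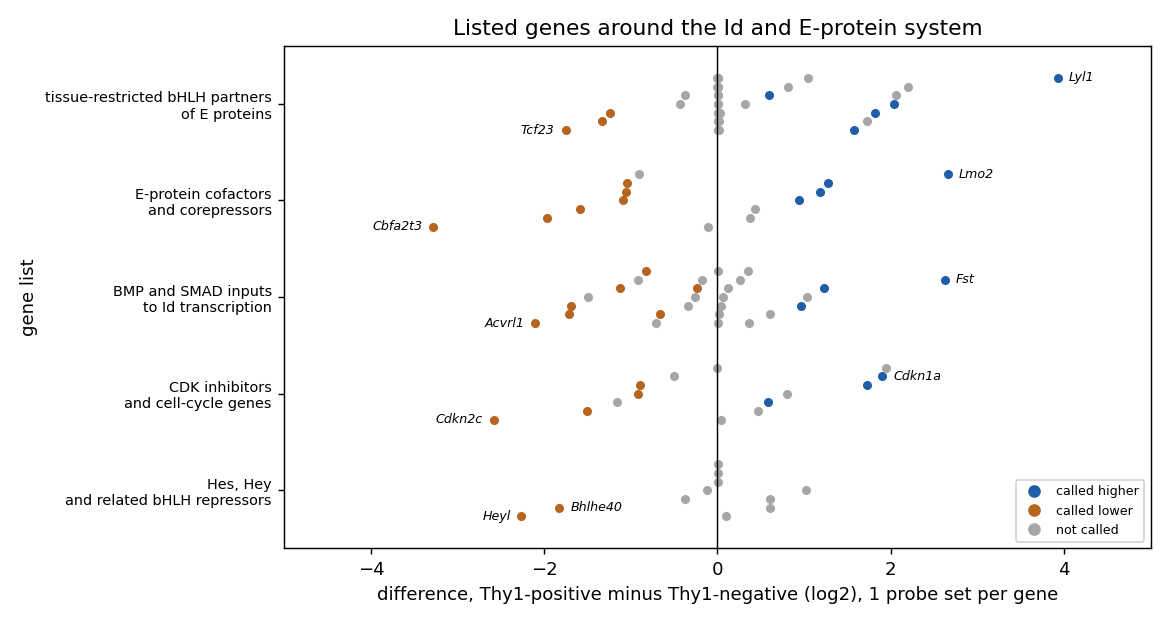
Thy1-positive minus Thy1-negative difference on the log2 scale for every measured gene of the 5 pathway lists, 1 point per gene, blue where called higher, orange where called lower and grey where not called; the height within a list only separates points. Called genes lie on both sides of 0 in every list but that of the Hes and Hey genes, from -3.28 for Cbfa2t3 to 3.93 for Lyl1.

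The genes with profiles most like each member were found among 9089 genes of above-median level, by the root mean square difference over the 6 arrays after each gene was centred on its own mean. Id4 had AI662270, Afap1l1 and Mpzl2 nearest, at 0.09, 0.12 and 0.13 on the log2 scale. Id1 had Socs3, Mir22hg and Cebpd at 0.18, 0.24 and 0.31, Id2 had 4930445K14Rik, Igfbp3 and Fos at 0.11, 0.13 and 0.13, and Id3 had Cebpd, Gpm6b and Adamts1 at 0.16, 0.18 and 0.19. Cebpd, a transcription factor gene of acute responses, was thus among the 3 nearest of both Id1 and Id3. Tcf3 had Arhgef1, Hk1 and Retreg2 at 0.03, 0.04 and 0.06, Tcf4 had C230091D08Rik, Smim10l1 and Tmed7 at 0.06, 0.06 and 0.07, and Tcf12 had Nmt1, Tbc1d24 and Polr1d at 0.04 each. With 6 arrays in 2 fractions, these are descriptions of shape and carry no test.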

How the data were processed

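Total RNA from 3 Thy1-negative and 3 Thy1-positive preparations was hybridised to 1 array each. The deposited table holds linear intensities for 45101 probe sets, with a lowest value of 1.87. Per the labels' descriptions, the authors used Affymetrix software scaled to a common array average, while the submitters' processing notes name GCRMA (the sources used here do not settle which procedure these intensities came from). Here 64 control probe sets were left out and log2(intensity + 1) of the deposited intensities was tested with limma 3.58.1 in R 4.3.3 (lmFit and eBayes, Benjamini-Hochberg adjustment over all probe sets or genes). The same fit was tested on simulated data.

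Gene names come from GEO's platform annotation: 34945 probe sets have 1 gene, 932 several and 9160 none, and those with several or none stay unnamed. For gene lists the probe set with the highest mean log2 stood for its gene. Pathway genes were named as up to 3 called genes per direction with the largest change, and neighbours as the 3 nearest genes. The genes and lists were chosen with earlier results of these data known. Levels of different probe sets were not compared, and 3 arrays per fraction limit the precision. Promoter windows are those of RefSeq. Alternatives covered scaling, filters, the pseudocount, weights, the replicate number as a block and leaving out each array.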

Additional observations from a re-analysis of the deposited data

How the results depend on the processing

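Of the 22 probe sets, 5 were called higher and 6 lower. Leaving out 1 array gave 2 to 3 higher and 1 to 9 lower. With a pseudocount of 16 in place of 1, 3 were called higher, all of Id4, and after quantile normalization 3 were called lower. With array weights, whose estimation did not fully converge, 14 were called lower, Id1 (-1.90) and Id3 (-1.79) among them. Of the pathway genes, 15 higher and 22 lower became 51 higher with arrays centred on their medians, 40 higher and 34 lower with array weights, and 7 to 24 higher and 8 to 23 lower without 1 array. The shares of all probe sets and genes called under these alternatives are not given here. These counts therefore cannot be read as results about these genes. The cause of the changes in the counts was not tested. Without 1 array, the difference of the Id2 probe set 1422537_a_at was -0.3574 to 0.0629, above 0 without N3 or P1 (0.03), and that of the Tcf4 probe set 1416725_at was -0.0057 (without N2) to 0.0129. Within-array changes kept their direction under all alternatives run.

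With the replicate number as a block, 1 probe set was called higher (Id4 1423260_at) and 0 lower in limma, where 11 of 22 had an unadjusted p below 0.05, 6 of them lower. Of the pathway genes 6 were called higher and 4 lower. The shares of all probe sets and genes under this fit, unadjusted or adjusted, are not given here. These counts therefore cannot be read as results about these genes. Same-numbered arrays did not deviate together (correlations of -0.22 to -0.02, against -0.14 to 0.25 for other numbers), so the numbers are not known to pair the preparations.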

Other observations

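Exactly equal intensities recurred across arrays of a fraction. On 3785 of 45037 probe sets (8.4%), at least 2 arrays of a fraction held the same value, and on 105 (0.233%) all 3 Thy1-positive arrays did. One of these is the brightest probe set of Cdkn1a, whose 3 Thy1-positive arrays all read 7.39 on the log2 scale, so the spread behind its difference comes from the Thy1-negative arrays and the moderation over all probe sets. Of the 22 Id and E-protein probe sets, 1 held such a tie, Tcf4 1424089_a_at on P2 and P3.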
